A study of Mus musculus with 15 samples.

Results

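Expression of the Hedgehog genes Ihh, Dhh, Ptch1, Smo, Hhip, Gli1, Gli2 and Gli3 was compared between HSD17B1-KI and WT mouse ovaries. The genes were chosen by symbol, as the ligands, receptors and intracellular mediators through which granulosa cells signal to theca cells, and they are 8 of the 27907 genes in the data. Ovarian RNA was sequenced from 7 HSD17B1-KI and 8 WT females, all 6 months old and all in estrus, with 1 stranded mRNA library per mouse. HSD17B1 is the granulosa cell enzyme that reduces estrone to estradiol. HSD17B1-KI mice carried Ser143Ala, in which alanine replaces the serine of the active site, on both alleles in all cells, from a line made by CRISPR/Cas9 editing. WT controls came from the same heterozygous matings, and neither group received a treatment. The allele changes 1 codon, so that gene counts could not check the genotype labels. Values are normalized counts, that is, reads counted on a gene and divided by 1 size factor per library. The libraries held between 26544745 and 72362981 reads counted on genes, with a median of 43611091 in HSD17B1-KI and 45313571.5 in WT. Between 128 and 14331 reads stood behind each value of the 8 genes.

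Hedgehog ligands are lipid-modified secreted proteins. Without a ligand, the receptor PTCH1 holds the membrane protein SMO inactive, and GLI3 is largely processed to a form that represses its targets. When a ligand binds PTCH1, SMO is released and full-length GLI proteins turn on target genes. Gli1, Ptch1 and Hhip are themselves such targets and are used as readouts of the pathway. In the growing follicle, granulosa cells make IHH and DHH, whereas PTCH1 and GLI1 are found mainly in the surrounding mesenchyme, from which the androgen-producing theca cells arise. The libraries were of whole ovaries, so that fewer cells of a type and less RNA per cell cannot be told apart. Markers of the cell types concerned were present, and each marker of the 10 lists used was above 0 in at least 1 mouse. The 11 granulosa markers summed to between 98116 and 271151 normalized counts in HSD17B1-KI and between 118050 and 247682 in WT. The 7 markers of steroidogenic theca and interstitial cells summed to between 546010 and 812637 in HSD17B1-KI and between 312626 and 566526 in WT. This list overlaps the luteal list, and its theca enzyme gene Cyp17a1 did not exceed 56551 in any mouse. The sums therefore do not measure theca cells alone. The 8 oviduct markers, which belong to tissue beside the ovary, summed to between 1031 and 23285 in HSD17B1-KI and between 1126 and 226756 in WT.

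The promoters of the ligands Ihh and Dhh and of the targets Ptch1 and Hhip are shown because the transcripts of these genes varied between mice in the pairings described further on. They are RefSeq windows on GRCm38.p6 of 300 bases, from 250 before to 50 after an annotated start, written from 5′ to 3′ on the gene's strand. Of the 8 genes, 7 had such a window. The Ihh window is chr1:74951623-74951922, the Dhh window chr15:98898491-98898790, the Ptch1 window chr13:63565686-63565985 and the Hhip window chr8:80057959-80058258, all on the minus strand. The start of the Ptch1 window lies inside the span of the gene. Capitals mark GC boxes, the motif GGGCGG on either strand, which SP1-type factors bind.
Ihh: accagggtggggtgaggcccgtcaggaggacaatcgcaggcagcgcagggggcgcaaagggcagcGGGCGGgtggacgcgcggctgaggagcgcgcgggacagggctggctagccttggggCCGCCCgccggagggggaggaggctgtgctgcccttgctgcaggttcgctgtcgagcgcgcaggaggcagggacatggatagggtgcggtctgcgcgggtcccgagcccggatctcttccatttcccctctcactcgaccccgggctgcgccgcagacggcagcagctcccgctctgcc
Dhh: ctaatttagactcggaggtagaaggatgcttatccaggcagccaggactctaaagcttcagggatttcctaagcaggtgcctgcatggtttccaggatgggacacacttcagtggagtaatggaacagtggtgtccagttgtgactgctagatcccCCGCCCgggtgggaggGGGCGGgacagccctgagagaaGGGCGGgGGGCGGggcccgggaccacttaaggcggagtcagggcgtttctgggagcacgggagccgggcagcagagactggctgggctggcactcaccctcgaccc
Ptch1: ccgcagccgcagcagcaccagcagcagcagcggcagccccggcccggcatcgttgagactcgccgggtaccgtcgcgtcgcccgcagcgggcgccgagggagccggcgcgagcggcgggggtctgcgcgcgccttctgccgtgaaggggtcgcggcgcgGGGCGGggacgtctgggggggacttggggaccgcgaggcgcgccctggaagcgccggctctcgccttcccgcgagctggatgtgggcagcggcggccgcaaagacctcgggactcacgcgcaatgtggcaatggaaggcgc
Hhip: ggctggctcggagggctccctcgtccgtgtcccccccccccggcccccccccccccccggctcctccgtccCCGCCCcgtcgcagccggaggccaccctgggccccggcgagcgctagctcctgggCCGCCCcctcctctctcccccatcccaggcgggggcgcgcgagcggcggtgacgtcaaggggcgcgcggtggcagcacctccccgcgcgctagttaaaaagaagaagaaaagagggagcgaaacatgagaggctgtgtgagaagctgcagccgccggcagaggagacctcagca

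The Dhh window held 4 GC boxes, the Ihh and Hhip windows 2 each and the Ptch1 window 1. Of the windows not printed, that of Gli3 held 2, that of Gli2 held 1 and that of Smo held 0. At least 1 GC box stood in 35.7% of all 32851 RefSeq mouse windows of this length, and 9.85% held at least 3. The windows were rich in G and C, with 72.7% in Ihh, 61.7% in Dhh, 76.3% in Ptch1 and 73.7% in Hhip, against a median of 52.7% over all windows. The Gli2 window had 67.3%, the Smo window 67.7% and the Gli3 window 71.0%. The consensus GACCACCCA, to which GLI proteins bind, was searched on both strands and did not occur in any of the 7 windows, and it stood in 0.253% of all windows. The SF-1 element CAAGGTC (3.96% of all windows) and the TATA box TATAAA (13.6%) were also searched on both strands and did not occur in them. No match means only that these letters are not in these windows.

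No Hedgehog gene was differentially expressed (DE) between HSD17B1-KI and WT ovaries. With limma-trend on log2(normalized count + 1), 0 of the 8 had an adjusted p under 0.05, and 0 had an unadjusted p under 0.05. Over all 21525 genes tested, 46 were DE, or 0.214%, and 10% had an unadjusted p under 0.05. edgeR and DESeq2 on the recovered reads also called 0 of the 8, where DESeq2 called 2.3% of all genes it tested, and edgeR 0.232%. The log2 fold change was above 0 for 4 genes (Dhh, Hhip, Ptch1 and Gli1) and below 0 for the other 4, with a median of 0.00 against -0.02 over all genes tested. The genotypes overlapped for all 8, and they did not overlap for 0.325% of all genes tested.

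**Figure D1:**
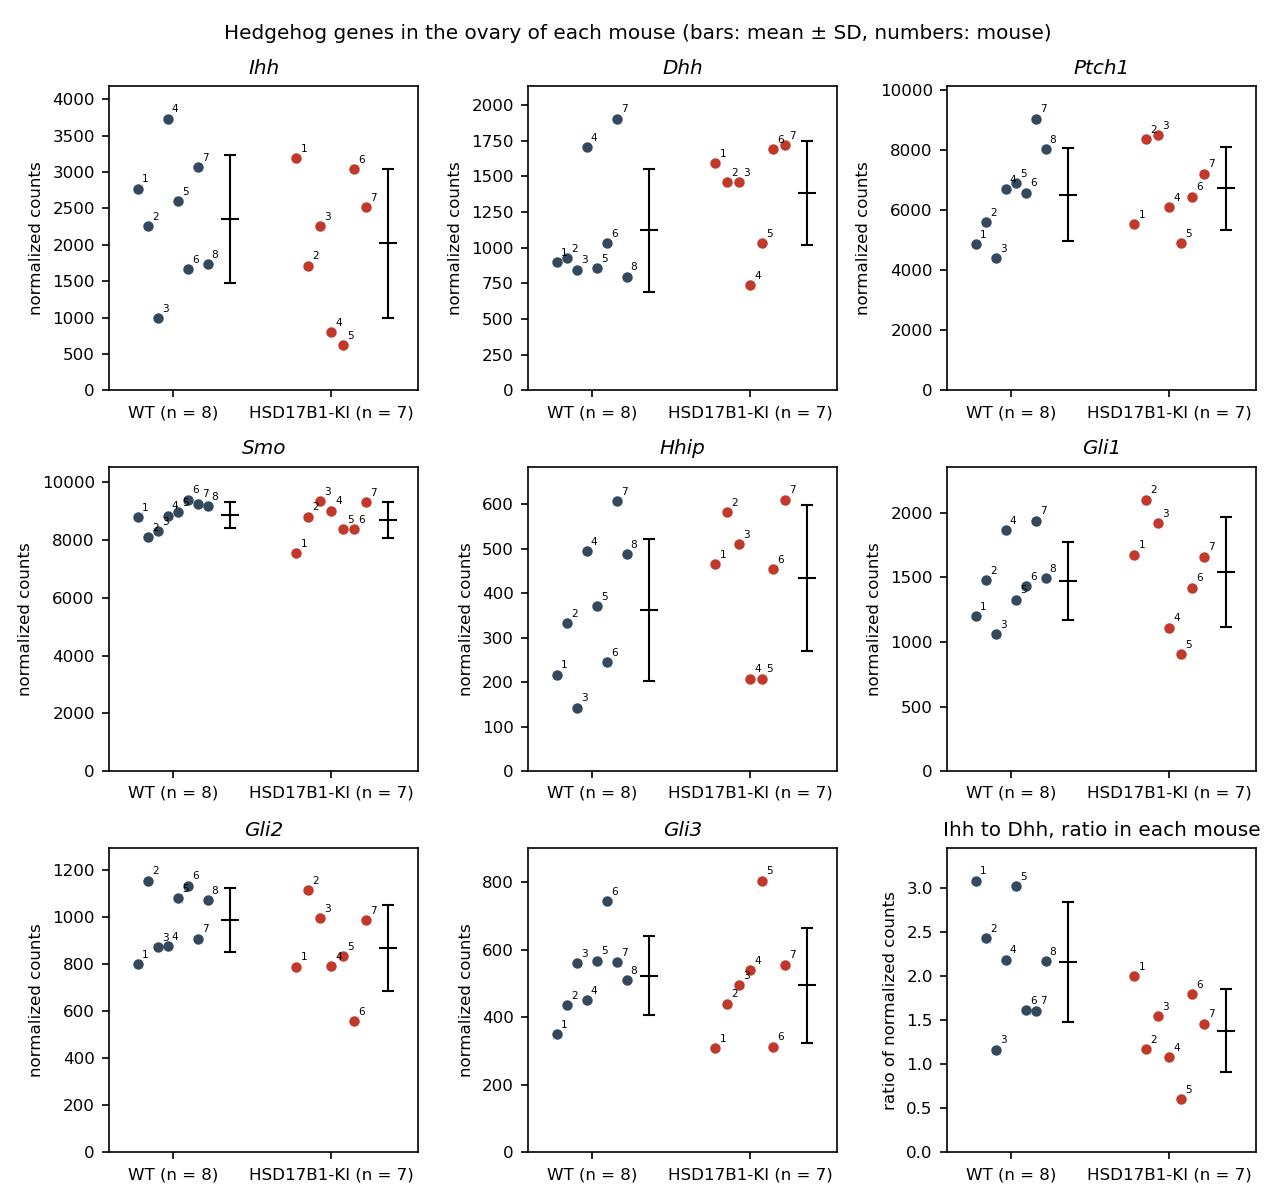
Normalized counts of the 8 Hedgehog genes and, in the last panel, the ratio of Ihh to Dhh, in the ovaries of 8 WT (dark points) and 7 HSD17B1-KI mice (red points), with the mouse number beside each point and bars for mean ± SD. The genotypes overlap in every panel, Ihh and Hhip spread widely between mice, and Smo stays between 7547 and 9384 normalized counts.

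Ihh (Indian hedgehog, ENSMUSG00000006538), one of the ligands of granulosa cells, lies on chromosome 1 from 74945315 to 74951672. It had between 627 and 3190.4 normalized counts in HSD17B1-KI with a median of 2262, and between 989 and 3734 in WT with a median of 2427. The lowest values were those of HSD17B1-KI 5 and HSD17B1-KI 4, followed by WT 3, and the highest was that of WT 4, so that low and high mice occurred in each genotype. The mean was 2022 ± 1021 normalized counts (SD) over the 7 HSD17B1-KI mice and 2352 ± 877 over the 8 WT mice, a ratio of 0.860. The log2 fold change was -0.34 with an SE of 0.37 (adjusted p = 0.817 by limma-trend, and unadjusted p = 0.413 by the two-sided exact permutation test). Its 95% interval, from -1.11 to 0.44, corresponds to between 0.463 and 1.36 times the WT level.

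Dhh (Desert hedgehog, ENSMUSG00000023000), the other ligand, lies on chromosome 15 from 98891152 to 98898540. Its normalized counts were between 739 and 1719.9 in HSD17B1-KI with a median of 1459, and between 798 and 1904 in WT with a median of 912. In HSD17B1-KI, 5 of 7 values exceeded the mean of WT and HSD17B1-KI 4 was lowest. In WT, WT 4 and WT 7 had 1704 and 1904, and the other mice were between 798 and 1032. The mean was 1385 ± 365 normalized counts (SD) over the 7 HSD17B1-KI mice and 1121 ± 431 over the 8 WT mice, a ratio of 1.24. This difference lay within the variation among mice (log2 fold change 0.33, SE 0.22, adjusted p = 0.675 by limma-trend and p = 0.195 by the exact permutation test). The 95% interval reached from -0.14 to 0.80, or 0.905 to 1.74 times WT. Dhh overlaps Rhebl1 on its own strand and an antisense transcript, Gm49442, and whether the counting used the strand is not given in the sources used here.

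The ratio of Ihh to Dhh was taken within each mouse. Its log2 difference between the genotypes was larger than that of either ligand, whose log2 fold changes had opposite signs. The ratio did not pass the threshold after adjustment over all pairs of the 8 genes. It was between 0.606 and 2.00 in HSD17B1-KI with a median of 1.46, and between 1.17 and 3.09 in WT with a median of 2.18. The mean was 1.38 ± 0.471 (SD, n = 7) and 2.16 ± 0.684 (SD, n = 8). On the log2 scale the ratio was 0.38 ± 0.58 in HSD17B1-KI and 1.05 ± 0.48 in WT, a difference of -0.67, with 7 of 7 HSD17B1-KI mice below the WT mean. The exact permutation test gave p = 0.0272, or 0.492 after Benjamini-Hochberg adjustment over the 28 ratios, which were compared after the data were seen. When 1 mouse was left out at a time, the difference was between -0.78 and -0.48. The exact permutation test then gave p between 0.00816 and 0.0626, and p was above 0.05 when HSD17B1-KI 4 or 5 or WT 1 or 5 was the mouse left out. The ratio of Ihh to Hhip had the next smallest p (log2 difference -0.62, exact permutation test, p = 0.0351, adjusted 0.492).

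Ptch1 (ENSMUSG00000021466), which encodes the ligand-binding receptor and is also a target gene, lies on chromosome 13 from 63508328 to 63573598. It had between 4901 and 8504 normalized counts in HSD17B1-KI with a median of 6455, and between 4410.5 and 9051 in WT with a median of 6644. Low values (HSD17B1-KI 5, WT 3 and WT 1) and high values (WT 7, HSD17B1-KI 3 and HSD17B1-KI 2) were found in each genotype. The mean was 6728 ± 1372 normalized counts (SD) over the 7 HSD17B1-KI mice and 6520.3 ± 1552 over the 8 WT mice, with a log2 fold change of 0.06 (SE 0.16, adjusted p = 0.939 by limma-trend). The 95% interval was 0.826 to 1.31 times WT.

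Smo (ENSMUSG00000001761), which encodes the membrane protein that PTCH1 restrains, lies on chromosome 6 from 29735503 to 29761365 and was the steadiest of the 8 genes. It was between 7547 and 9327 normalized counts in HSD17B1-KI with a median of 8799.7, and between 8096 and 9384 in WT with a median of 8887. The highest mouse was at 1.24 times the lowest. The mean was 8673 ± 629 (SD) over the 7 HSD17B1-KI mice and 8840.2 ± 452 over the 8 WT mice, a ratio of 0.981. Its log2 fold change of -0.03 (SE 0.05, adjusted p = 0.901 by limma-trend) had a 95% interval of 0.904 to 1.06 times WT, the narrowest of the 8.

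Hhip (ENSMUSG00000064325), which encodes a surface protein that binds and sequesters the ligands and is a target gene, lies on chromosome 8 from 79965851 to 80058006. It was between 208 and 611 normalized counts in HSD17B1-KI with a median of 465.7, and between 143.02 and 607 in WT with a median of 352. HSD17B1-KI 4 and HSD17B1-KI 5 were at 208 and 209, and the other 5 HSD17B1-KI mice were between 455 and 611. WT mice were spread evenly, from WT 3 at 143.02 and WT 1 at 217 to WT 7 at 607. The mean was 434 ± 164 (SD, n = 7) and 362 ± 159 (SD, n = 8), a ratio of 1.20. The log2 fold change was 0.28 (SE 0.32, adjusted p = 0.828 by limma-trend), with a 95% interval of 0.755 to 1.96 times WT.

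Gli1 (ENSMUSG00000025407), the GLI factor that acts only as an activator and is itself a target, lies on chromosome 10 from 127329882 to 127341974. It was between 906 and 2100.3 normalized counts in HSD17B1-KI with a median of 1659, and between 1058 and 1938 in WT with a median of 1453. The lowest mouse was HSD17B1-KI 5 and the highest HSD17B1-KI 2, so that HSD17B1-KI covered the whole range of WT. The mean was 1541 ± 426 (SD) over the 7 HSD17B1-KI mice and 1473 ± 303 over the 8 WT mice, with a log2 fold change of 0.04 (SE 0.18, adjusted p = 0.964 by limma-trend). The 95% interval was 0.794 to 1.33 times WT. The 3′ end of Gli1 overlaps that of Arhgap9 on the other strand, and Gm47200 is antisense to it, which makes its count uncertain if strand was not used.

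Gli2 (ENSMUSG00000048402), the main activator of the first response to ligand, lies on chromosome 1 from 118834132 to 119053619. It was between 558 and 1115 normalized counts in HSD17B1-KI with a median of 836, and between 803 and 1157 in WT with a median of 992. HSD17B1-KI 6 stood lowest and 2 of 7 values in HSD17B1-KI exceeded the mean of WT. With 868 ± 183 (SD, n = 7) against 989 ± 137 (SD, n = 8), Gli2 had the smallest adjusted p of the 8 genes (log2 fold change -0.21, SE 0.13, adjusted p = 0.654 by limma-trend and p = 0.158 by the exact permutation test). The 95% interval was 0.714 to 1.05 times WT.

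Gli3 (ENSMUSG00000021318), largely a repressor when ligand is absent, lies on chromosome 13 from 15463235 to 15730026. It was between 309 and 804 normalized counts in HSD17B1-KI with a median of 495, and between 349.6 and 743 in WT with a median of 534. The order of the mice was unlike that of Ihh, with HSD17B1-KI 5 and WT 6 highest and HSD17B1-KI 1 and HSD17B1-KI 6 lowest. The mean was 494 ± 169 (SD) over the 7 HSD17B1-KI mice and 522 ± 117 over the 8 WT mice, with a log2 fold change of -0.12 (SE 0.20, adjusted p = 0.884 by limma-trend) and a 95% interval of 0.689 to 1.23 times WT.

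**Figure D2:**
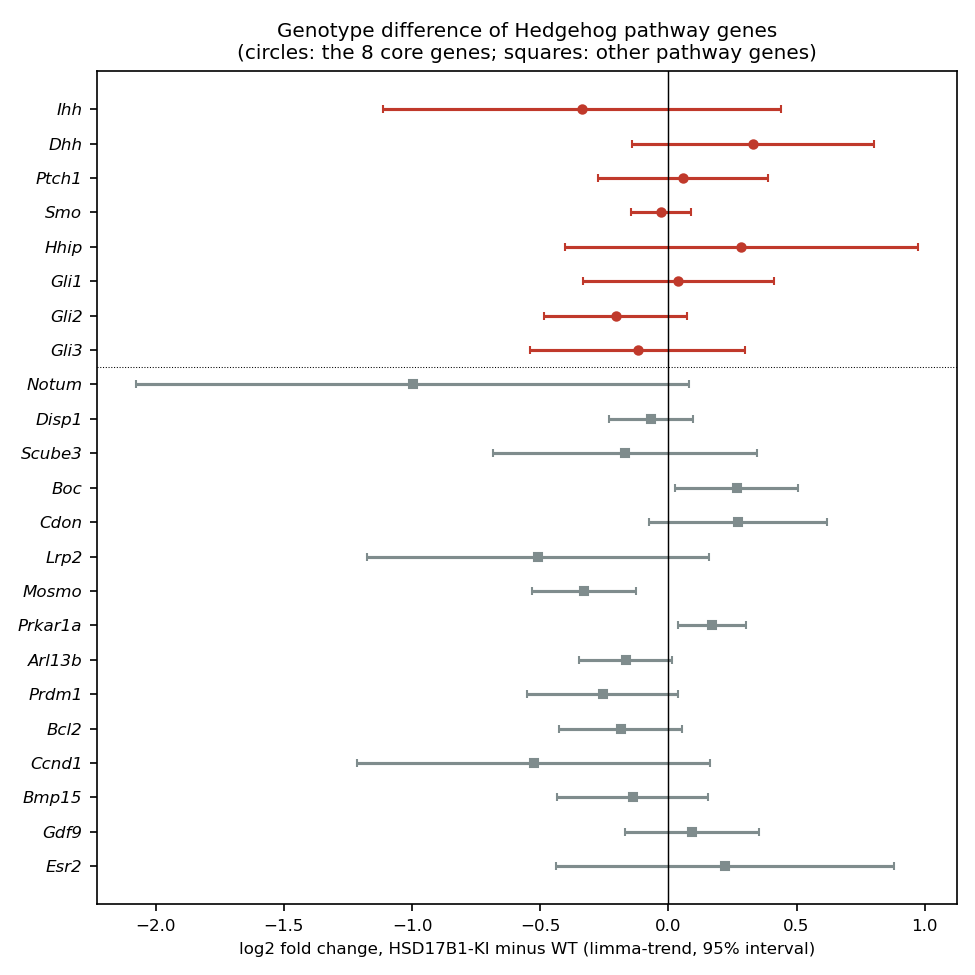
Log2 fold change between HSD17B1-KI and WT (x axis, log2 of normalized count + 1, limma-trend) with its 95% interval for the 8 Hedgehog genes (circles) and for other pathway genes (squares). All 8 intervals of the Hedgehog genes include 0, with the widest for Ihh (-1.11 to 0.44) and the narrowest for Smo (-0.15 to 0.09).

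Levels were compared between genes per length, as RPKM over the exons of each gene, with all reads counted on genes as the total. The length was that of all annotated exons together, 14185 bases for Ptch1 and 3048 for Ihh. A transcript can be shorter than that, and the order of the genes depends on the length used. Smo was highest, at 33.5 ± 2.42 (SD, n = 15 mice), and every mouse had more Smo than any mouse had Ihh. Ihh followed with 15.5 ± 6.70, above Ptch1 (10.03 ± 2.28) in 12 of 15 mice, that is, in 8 of 8 WT and 4 of 7 HSD17B1-KI mice. Ptch1 was above Gli1 (6.48 ± 1.60) in all 15 mice, but their ranges overlapped. Gli1 was above Dhh (6.08 ± 2.05) in 9 of 15 mice (6 of 8 WT and 3 of 7 HSD17B1-KI), so that these neighbours could not be ordered. The order of their means turned between the genotypes, with Gli1 at 6.41 ± 1.41 and Dhh at 5.55 ± 2.22 in WT and Gli1 at 6.56 ± 1.90 and Dhh at 6.68 ± 1.80 in HSD17B1-KI. The log2 ratio of Dhh to Gli1 differed by 0.29 between the genotypes (exact permutation test, p = 0.0988, or 0.542 adjusted over the 28 ratios). Gli2 (2.91 ± 0.529) and Gli3 (1.14 ± 0.302) were lower, each below the gene before it in all 15 mice. Hhip (0.939 ± 0.387) was below Gli3 in the mean, but Gli3 was the higher in 7 of 15 mice (5 of 8 WT and 2 of 7 HSD17B1-KI). Per length, Ihh was at 14.1 ± 7.09 in HSD17B1-KI (SD, n = 7) and 16.8 ± 6.53 in WT (SD, n = 8).

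**Figure D3:**
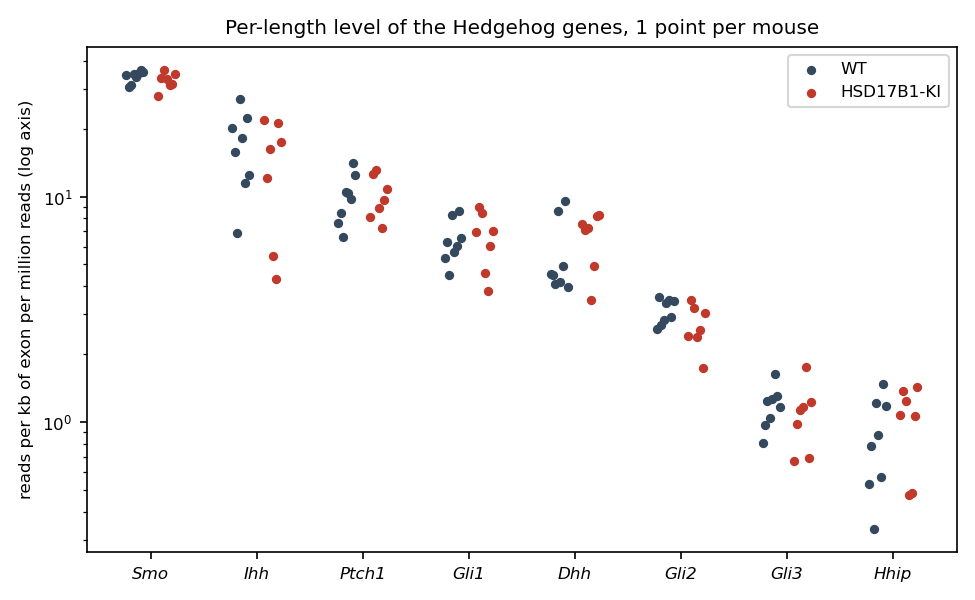
RPKM (reads per length of exon and library total, log axis) of the 8 Hedgehog genes, ordered by their mean over 15 mice, with 1 point per WT (dark) or HSD17B1-KI (red) mouse. Smo lies above all other genes in every mouse, and Gli3 and Hhip are lowest, at means of 1.14 and 0.939.

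For each of the 8 genes, mice of the same genotype differed more than the means of the genotypes. From the lowest to the highest of the 15 mice, Ihh differed 5.96-fold, Hhip 4.27-fold, Gli3 2.60-fold, Dhh 2.58-fold, Gli1 2.32-fold, Gli2 2.07-fold and Ptch1 2.05-fold. The residual SD of the log2 value within genotype was 0.78 for Ihh and 0.68 for Hhip, against a median of 0.33 over all genes tested. For Smo it was 0.09, and 2.67% of the genes tested had a lower value.

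The ligands Ihh and Dhh varied together with the targets Hhip and Gli1 from mouse to mouse. Correlations were computed on log2 values with the genotype mean removed, over all 28 pairs and 15 mice. Of these, 10 had a permutation p under 0.05 after adjustment over the pairs by Pearson's r and 8 by Spearman's rho. These 10 pairs, 35.7% of the 28, had an r of 0.67 or more in size, which 7.79% of all pairs of the 15059 genes averaging 50 or more normalized counts also had. The cut of 0.67 was the r of the weakest of these 10 pairs, and the pairs share genes, so that comparing these shares is not a test. Many other genes followed Gli1 more closely than the ligands did, since Dhh ranked 703 and Ihh 738 in likeness to it. The highest was that of the targets Hhip and Gli1 (r = 0.89, permutation p = 5e-05, adjusted p = 0.0014; rho = 0.87, permutation p = 8e-05, adjusted p = 0.00224), with r = 0.92 within HSD17B1-KI and 0.90 within WT. Without the 2 mice farthest from the median of the first gene, it was 0.86. Ptch1, the third target, correlated with Hhip (r = 0.82, permutation p = 0.00038, adjusted p = 0.00495; rho = 0.81, permutation p = 0.00076) and with Gli1 (r = 0.78, permutation p = 0.00053, adjusted p = 0.00495; rho = 0.76, permutation p = 0.0021). Without the 2 farthest mice these were 0.70 and 0.66.

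The ligands Ihh and Dhh correlated with each other (r = 0.75, permutation p = 0.00115, adjusted p = 0.00805; rho = 0.82, permutation p = 0.00031), with r = 0.79 without the 2 farthest mice. Dhh correlated with Gli1 (r = 0.74, permutation p = 0.00216, adjusted p = 0.0119; rho = 0.73, permutation p = 0.00398; 0.67 without the 2 farthest mice). Dhh also correlated with Hhip (r = 0.72, permutation p = 0.00297, adjusted p = 0.0119; rho = 0.73, permutation p = 0.00397; 0.58 without the 2 farthest mice). This pair lost its call without HSD17B1-KI 4 (r = 0.65, permutation test, adjusted p = 0.0638). Ihh correlated with Hhip (r = 0.77, permutation p = 0.0027, adjusted p = 0.0119; rho = 0.64, permutation p = 0.0111; 0.58 without the 2 farthest mice), and lost its call without WT 3 (r = 0.70, permutation test, adjusted p = 0.0553). Its correlation with Gli1 (r = 0.73, permutation p = 0.00597, adjusted p = 0.0209) rested on mice low in Ihh. It was 0.48 without the 2 farthest mice, rho was 0.58 (permutation p = 0.0384, adjusted p = 0.108), and it lost its call without HSD17B1-KI 4, HSD17B1-KI 5 or WT 3 (r = 0.69, 0.60 and 0.68).

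The receptor Ptch1 did not follow the ligands past the threshold. Its r was 0.42 with Ihh (permutation p = 0.122, adjusted p = 0.243; rho = 0.31, permutation p = 0.276), and -0.03 without the 2 farthest mice. With Dhh it was 0.46 (permutation p = 0.0973, adjusted p = 0.24; rho = 0.45, permutation p = 0.107; 0.32 without the 2 farthest mice). Ptch1 correlated with Smo (r = 0.67, permutation p = 0.0068, adjusted p = 0.0212; rho = 0.76, permutation p = 0.0021; 0.63 without the 2 farthest mice), which lost its call without HSD17B1-KI 3 or WT 3 (r = 0.62 and 0.63). Gli3 went against Ihh (r = -0.68, permutation p = 0.0127, adjusted p = 0.0356; rho = -0.60, permutation p = 0.0368, adjusted p = 0.108; -0.56 without the 2 farthest mice). This relation lost its call without HSD17B1-KI 1, 2, 3, 5 or 6, with r down to -0.53 without HSD17B1-KI 5 (permutation test, adjusted p = 0.153). Without HSD17B1-KI 2 or 3 the call was lost although r was not weaker (-0.68 and -0.70, permutation test, adjusted p = 0.0605 and 0.0507). Gli2 had no pair past the threshold, and its r lay between -0.15 with Ihh and 0.45 with Gli3.

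**Figure D4:**
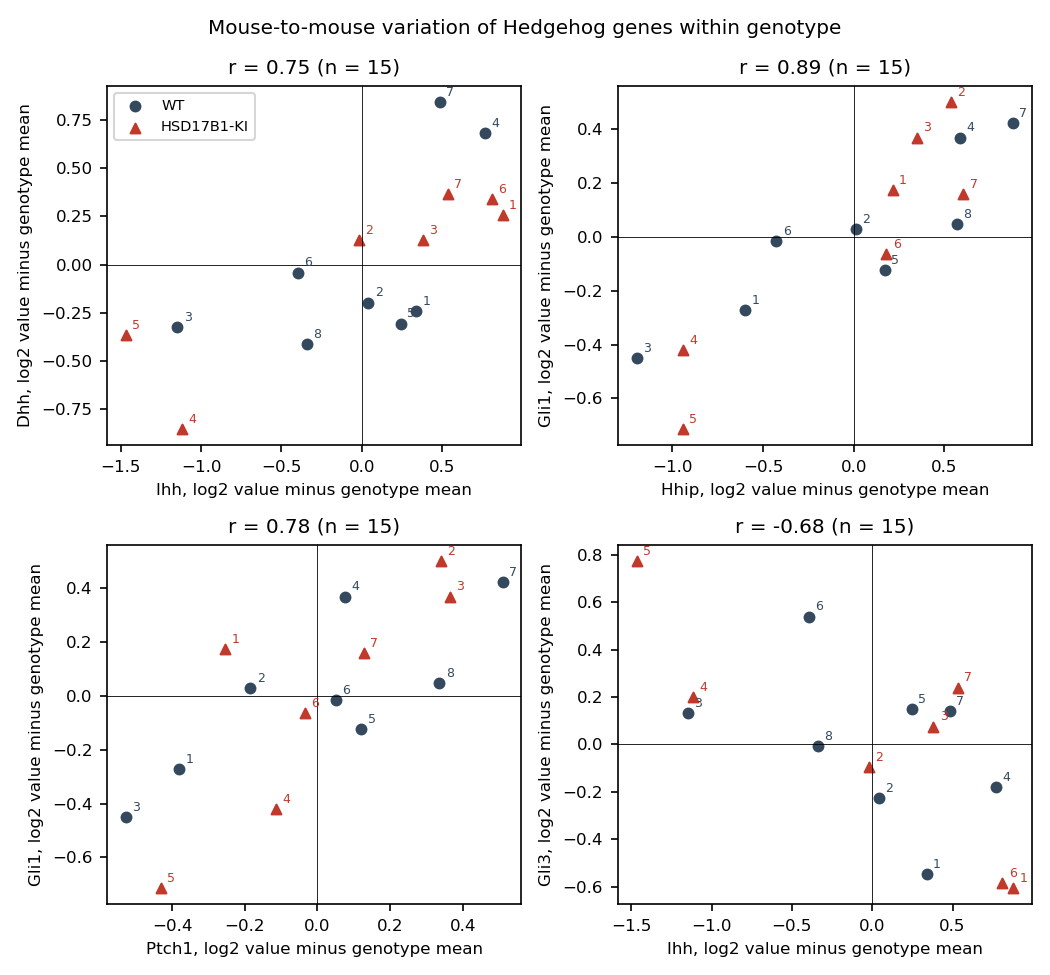
Log2(normalized count + 1) minus the genotype mean for 4 pairs of Hedgehog genes, with 1 numbered point per mouse (circles WT, triangles HSD17B1-KI). Ihh rises with Dhh (r = 0.75), Hhip and Ptch1 with Gli1 (r = 0.89 and 0.78), and Ihh falls as Gli3 rises (r = -0.68), with HSD17B1-KI 4, HSD17B1-KI 5 and WT 3 at the low end of Ihh.

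Markers of cell types moved with these genes. The score of a marker list is the mean of its centred log2 values in a mouse. Over 80 relations of the 8 genes with 10 lists, compared after the data were seen, 8 had an adjusted permutation p under 0.05. The share of all genes that follow these scores as closely is not given here. The granulosa score rose with Dhh (r = 0.87, adjusted permutation p = 0.0088; rho = 0.84, adjusted permutation p = 0.0194), Hhip (r = 0.84, adjusted permutation p = 0.008; rho = 0.88, adjusted permutation p = 0.0056) and Ihh (r = 0.81, adjusted permutation p = 0.0088; rho = 0.83, adjusted permutation p = 0.00933). It also rose with Gli1 (r = 0.77, adjusted permutation p = 0.027; rho = 0.76, adjusted permutation p = 0.0316). Without the 2 farthest mice these 4 lay between 0.73 and 0.83. Ihh fell as the stroma and theca precursor score rose (r = -0.87, adjusted permutation p = 0.0088; rho = -0.76, adjusted permutation p = 0.0319), and Gli3 rose with it (r = 0.89, adjusted permutation p = 0.0032; rho = 0.91, adjusted permutation p = 0.004). Without the 2 farthest mice these were -0.81 and 0.81. Gli3 also rose with the endothelium score (r = 0.76, adjusted permutation p = 0.0088; rho = 0.76, adjusted permutation p = 0.0274; 0.68 without the 2 farthest mice), and Ihh with the steroidogenic theca and interstitial score (r = 0.79, adjusted permutation p = 0.0389; rho = 0.64, adjusted permutation p = 0.151; 0.67 without the 2 farthest mice). For Ptch1, Smo and Gli2 no list passed the threshold. The part of cell type shares in the correlations between the Hedgehog genes was not tested.

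**Figure D5:**
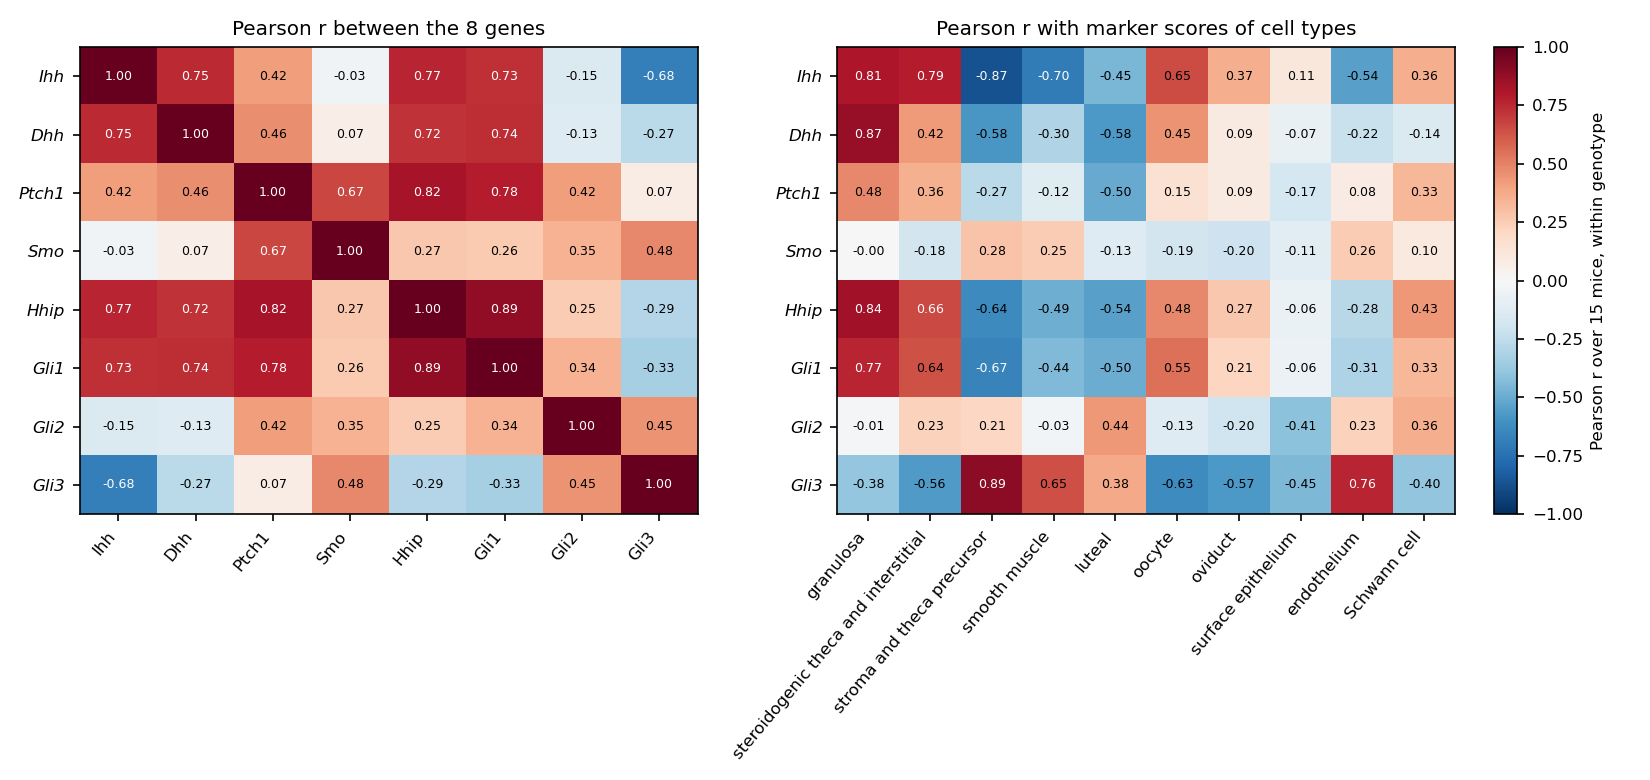
Pearson r over 15 mice of log2 values with the genotype mean removed, between the 8 Hedgehog genes (left) and between each of them and the score of 10 marker lists (right), from -1 (blue) to 1 (red). Ihh, Dhh, Hhip and Gli1 are red with one another and with the granulosa score (0.77 to 0.87), whereas Gli3 is red with the stroma score (0.89) and blue with Ihh (-0.68).

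Between the genotypes, the granulosa score differed by 0.24 (HSD17B1-KI minus WT; exact permutation test, p = 0.383), with 9 of 11 markers above 0 and 0 called by limma-trend (1 at an unadjusted p under 0.05; 0 by edgeR and DESeq2). In the steroidogenic theca and interstitial list all 7 markers were above 0, and limma-trend called 2 of them, Aldh1a1 and Hsd3b6, where DESeq2 called 3. Its score was 1.18 higher in HSD17B1-KI, given without a test, since the list holds genes that the study singled out in these same libraries. Of all genes that each tested, limma-trend called 0.214% and DESeq2 2.3%, and 10% had an unadjusted limma-trend p under 0.05. The stroma and theca precursor score differed by -0.01 (exact permutation test, p = 0.960). All 6 smooth muscle markers (score -0.43, exact permutation test, p = 0.0751; 2 markers at an unadjusted p under 0.05), all 8 surface epithelium markers (score -0.37, exact permutation test, p = 0.0802; 3 markers) and all 8 oviduct markers (score -0.94, exact permutation test, p = 0.464; 0 markers) were below 0, and limma-trend and DESeq2 called 0 of them. The scores of Schwann cells, oocytes, luteal cells and endothelium had exact permutation p-values between 0.432 (Schwann cells, -0.12) and 0.628 (endothelium, 0.05). With the granulosa score as a covariate, the log2 fold change of Ihh was -0.63 (limma-trend adjusted p = 0.282), that of Hhip 0.02 and that of Dhh 0.14, and 0 of the 8 genes were called.

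The theca enzyme gene Cyp17a1 stood apart in 4 libraries, at 224 normalized counts in HSD17B1-KI 4, 254 in HSD17B1-KI 5, 107 in WT 3 and 141 in WT 6, against 2033 to 56551 in the other mice. Ihh in these 4 was at 799.6, 627, 989 and 1667 normalized counts, the 4 lowest values of Ihh among the 15 mice. Gli1 was at 1110.4, 906, 1058 and 1429 in the same order, and Hhip at 208, 209, 143.02 and 245. WT 1, which is not among these 4, was lower than WT 6 in both genes, at 1198 for Gli1 and 217 for Hhip. For Gli1, WT 5 (1327) and HSD17B1-KI 6 (1420) were also below WT 6. The Ihh value of WT 6 was close to those of HSD17B1-KI 2 (1714) and WT 8 (1732), where Cyp17a1 was at 46944 and 21605. Gli3 in the 4 libraries was at 540.1, 804, 560.0 and 743. Dhh in these 4 was at 739, 1035, 847 and 1032. Ptch1 was at 6102, 4901, 4410.5 and 6585, Smo at 8999.7, 8374, 8294 and 9384, and Gli2 at 791, 836, 875 and 1136.

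The other genes of the pathway did not pass the test either. Of 62 further pathway genes, 60 were tested, and limma-trend called 0 of them, as did edgeR and DESeq2. An unadjusted limma-trend p under 0.05 was found for 3, or 5%, against 10% of all genes. The log2 fold change was above 0 for 25 and below 0 for 35, with a median of -0.05. Sonic hedgehog (Shh), the third mammalian ligand, was not tested, since no mouse had more than 3.23 normalized counts and 5 of 15 were above 0.

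Among genes that make and release the ligands, 1 of 7 was above 0 and 6 were below, with a median log2 fold change of -0.07. Disp1, which exports the ligands from the cell, had 1592 ± 159 normalized counts (SD) over the 7 HSD17B1-KI mice and 1668 ± 155 over the 8 WT mice (limma-trend adjusted p = 0.826). Scube3, a secreted carrier, had a log2 fold change of -0.17 (limma-trend adjusted p = 0.864). Notum, a secreted lipid hydrolase best known from Wnt signalling, had the smallest p of this list (log2 fold change -0.997, limma-trend adjusted p = 0.539). It was between 41.2 and 127 in HSD17B1-KI and reached 961 in WT.

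Of the 6 genes of ligand reception besides Ptch1, 3 were above 0 and 3 below. The co-receptor Boc had 3278 ± 566 normalized counts (SD) over the 7 HSD17B1-KI mice and 2722 ± 424 over the 8 WT mice, with 7 of 7 values in HSD17B1-KI above the mean of WT. Its log2 fold change of 0.27 had an unadjusted limma-trend p of 0.0314 and an adjusted p of 0.439. The co-receptor Cdon had the same log2 fold change, 0.27 (limma-trend adjusted p = 0.621), with 6 of 7 HSD17B1-KI mice above the WT mean. Lrp2, a large endocytic receptor that can take up the ligands, was at -0.51 (limma-trend adjusted p = 0.634).

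Of the 27 genes of signal transduction, 11 were above 0 and 16 below, with a median of -0.05. Mosmo, which lowers the surface level of SMO and is listed under the older symbol BC030336, had 2184 ± 308 normalized counts (SD) over the 7 HSD17B1-KI mice and 2739 ± 346 over the 8 WT mice. In HSD17B1-KI, 7 of 7 mice lay under the WT mean, and its log2 fold change of -0.33 had an unadjusted p of 0.00354 and an adjusted p of 0.201 with limma-trend and of 0.0659 with DESeq2. Prkar1a, a regulatory subunit of protein kinase A, which phosphorylates GLI proteins, had 25217 ± 1386 (SD, n = 7) and 22478 ± 1947 (SD, n = 8) normalized counts, with 7 of 7 HSD17B1-KI mice above the WT mean (log2 fold change 0.17, limma-trend adjusted p = 0.348). Arl13b, a GTPase of the primary cilium in which SMO acts, was at -0.17 (limma-trend adjusted p = 0.545).

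Of 15 further textbook target genes tested, 8 were above 0 and 7 below, with a median of 0.00. The smallest p-values of this list belonged to Prdm1 (log2 fold change -0.26, limma-trend adjusted p = 0.568), Bcl2 (-0.19, 0.625) and Ccnd1 (-0.53, 0.635). Of 6 genes that act upstream of the ligands in the follicle, 3 were above 0 and 3 below. The oocyte factors Gdf9 and Bmp15, which induce the ligands in granulosa cells, had log2 fold changes of 0.09 and -0.14 (limma-trend adjusted p = 0.856 and 0.792). The estrogen receptor gene Esr2 was at 0.22 (limma-trend adjusted p = 0.863).

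Among 15058 genes averaging 50 or more normalized counts, those whose log2 values most resembled Gli1 over the 15 mice, with the genotype mean removed, were St6gal2 (r = 0.94), Alpk3 (0.93), Tmem201 (0.93), Psd4 (0.93) and Ebf4 (0.93). Hhip ranked 42 in likeness to Gli1 and Ptch1 423. The genes most like Ihh were Cacna1a (0.93), Tmem130 (0.92), Taf7 (0.92), Arrdc2 (0.92) and Car14 (0.91), where Hhip ranked 321, Dhh 431 and Gli1 500. These values are descriptions over 15 whole-ovary libraries, in which many genes resembled Gli1 and Ihh more closely than the other Hedgehog genes did.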

How the data were processed

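Libraries of ovarian mRNA came from 7 HSD17B1-KI and 8 WT mice. Per the paper's methods and the submitters' processing notes, reads were demultiplexed with bcl2fastq 2.20, adapter-trimmed with Skewer and aligned to mm10 with STAR 2.7.3. The counter, annotation release and use of strand are not given in the sources used here. The authors deposited a normalized signal, counts divided by 1 size factor per library, for 27907 genes. Dividing by the smallest step of a library gave whole reads for 100% of values (tolerance 0.01), which edgeR and DESeq2 used. With 128 or more reads behind every value of the 8 genes, counting error was small beside the spread between mice.

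limma-trend was fitted to log2(normalized count + 1). The 21525 genes averaging 2 or more were kept, genotype was the single factor, and p-values were two-sided, with Benjamini-Hochberg adjustment and a threshold of 0.05. Single genes and ratios were compared with exact permutation tests over all 6435 splits, and correlations with 100000 permutations within genotype. A mouse is 1 replicate, and litters are not given in the labels. The members and all gene lists were chosen with earlier results of these data known. Named are the 8 genes, the 5 genes most like Gli1 and Ihh each, and from each pathway list DE genes or else the 3 with the smallest p. Shh, Aldh1a1, Hsd3b6 and Cyp17a1 were named after their values were seen. Values of 1 gene are not reported here.

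Alternatives were pseudocounts of 0.1 and 10, a minimum mean of 10 or none, upper quartile scaling, edgeR with TMM, DESeq2, a replicate block, marker scores as covariates and leaving out each mouse. Marker correlations, ratios and the exact test on mean counts were added after the data were seen. Positions are from GENCODE M21 (GRCm38, the assembly of mm10), which held 27533 of the identifiers. All fits were tested on simulated data, but the outcome of those tests is not reported here. Versions were Python 3.11.15 with SciPy 1.17.1, NumPy 2.4.6 and pandas 2.3.3, and R 4.3.3 with DESeq2 1.42.0, edgeR 4.0.16 and limma 3.58.1.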

Additional observations from a re-analysis of the deposited data

How the results depend on the processing

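None of the 8 Hedgehog genes was called in any of 25 alternative settings each (200 values; limma-trend, edgeR and DESeq2), and the smallest adjusted p was 0.282, for Ihh with the granulosa score as a covariate. The exact permutation test on mean counts gave p between 0.167 and 0.784. With that covariate the log2 fold change changed sign for Gli1 (-0.0897) and Ptch1 (-0.0162). When 1 mouse was left out at a time, the log2 fold change ranged from -0.50 to -0.09 for Ihh (closest to 0 without HSD17B1-KI 5), from 0.27 to 0.47 for Dhh, from 0.11 (without WT 3) to 0.44 (without HSD17B1-KI 4) for Hhip, from -0.27 to -0.11 (without HSD17B1-KI 6) for Gli2 and from -0.25 to -0.02 for Gli3 (HSD17B1-KI 5 and HSD17B1-KI 1 left out, respectively). It ranged from -0.0444 to 0.158 for Gli1, from -0.0197 to 0.128 for Ptch1 and from -0.0472 to 0.00371 for Smo. The number of DE genes among all genes was 46, and 28 without a filter, 456 with DESeq2, and between 6 (HSD17B1-KI 2 left out) and 139 (HSD17B1-KI 5 left out) with 14 of the 15 mice. The difference in the log2 ratio of Ihh to Dhh, -0.67, then ranged from -0.78 to -0.48, and 11 of 15 fits kept an exact permutation p under 0.05. The number of correlated pairs, 10, stayed within 1.5-fold in all 18 alternatives. Causes of these shifts were not tested.

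The genotypes share replicate numbers, but same-numbered mice did not deviate together. Their correlations were 0.55 for number 1, 0.22 for number 5 and between -0.55 and -0.08 for the other 5, and only HSD17B1-KI 1 resembled its own number best. With the replicate block, limma-trend called 0 genes of all tested and 0 of the 8 Hedgehog genes. Shh, at no more than 3.23 normalized counts, was too low to compare at this depth.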
